A study of Mus musculus with 4 samples.

Results

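The cytotoxic granule and effector genes described here were the 8 genes Gzma, Gzmb, Gzmc, Gzmk, Prf1, Nkg7, Fasl and Ifng, taken by symbol from the 32285 genes counted in mammary tumors of 4 mice. All 8 symbols were found, each on 1 row. Single-cell RNA sequencing (10x Genomics 3' chemistry) gave 1 library per mouse, with tumors taken at 17 to 18 weeks. Replicates 1 and 3 were MMTV-Cre-; Frmd8fl/fl; PyMT (Cre- below) and replicates 2 and 4 were MMTV-Cre+; Frmd8fl/fl; PyMT (Cre+ below). All 4 mice thus carried the floxed Frmd8 alleles and the PyMT transgene, a polyoma virus middle T antigen that makes mammary tumors, and differed in the Cre recombinase. The MMTV promoter is active mainly in mammary epithelium. Cells had been sorted by flow cytometry before capture, with a gate not given in the sources used here, and the sort can set shares of cell types.

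Natural killer (NK) cells and CD8 T cells kill a target by releasing granules at the contact between both cells. Perforin (Prf1) opens the target's membrane and granzymes, which are serine proteases, enter and cleave proteins there, while Fas ligand (Fasl) acts on the death receptor Fas and interferon gamma (Ifng) acts as a secreted cytokine. CD4 T cells mostly help or regulate other immune cells, and their regulatory subset is marked by Foxp3.

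Barcodes with at least 1000 unique molecular identifiers (UMIs, each 1 captured RNA molecule) and at most 20% mitochondrial UMIs were kept, which left 4922 and 5918 barcodes in the Cre- libraries and 5609 and 7123 in the Cre+ libraries, with median depths of 12455 to 13072.5 UMIs. Pairs of libraries shared 6 to 16 barcode sequences. Lymphocytes were gated on raw UMIs: Ncr1 without Cd3d, Cd3e or Cd3g for NK cells, Cd3 with Cd8a or Cd8b1 and without Cd4 or Ncr1 for CD8 T cells, and Cd3 with Cd4 and without Cd8 or Ncr1 for CD4 T cells. In the order Cre- replicates 1 and 3, then Cre+ replicates 2 and 4, this gave 31, 43, 33 and 106 NK cells, 162, 144, 139 and 201 CD8 T cells, and 52, 92, 51 and 27 CD4 T cells. All 8 markers of the NK list (among them Klrb1c, Klre1 and Eomes) were detected in the NK gate of every library, with a summed level of 3551 to 5747 CPM (UMIs of a gene or list for every 1000000 UMIs of the same gate and library), against 698 to 2462 in CD8 T cells. Cre+ replicate 4 stood apart in several ways. It was deposited with all barcodes, it held the most NK cells, and its NK and CD8 T cells were the deepest (median 17385 and 13576 UMIs, against at most 10285 and 8248 in the other 3 libraries). Frmd8 itself was measured over all kept barcodes at 25.1 and 24.7 CPM in the Cre- libraries and at 11.3 and 12.9 CPM in the Cre+ libraries, a log2 fold change of -0.92 ± 0.22 (standard error) that was not called (unadjusted p = 0.0112, adjusted p = 1.00, edgeR). It was at 55.03 and 48.8 against 28.5 and 35.0 CPM in NK cells and at 63.3 and 42.2 against 37.9 and 32.2 CPM in CD8 T cells, not called either.

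Some barcodes in the lymphocyte gates also passed a gate of another cell type, where doublets and free RNA cannot be told apart. They made up 6.06 to 34.9% of NK cells, 6.94 to 17.9% of CD8 T cells and 6.52 to 29.6% of CD4 T cells, and they held 10.7 to 35.4%, 18.7 to 39.5% and 31.8 to 60.4% of the UMIs of those gates. By UMIs, their part of the NK gate was 35.4 and 29.4% in the Cre- and 10.7 and 22.1% in the Cre+ libraries. In the CD8 gate it was 39.5 and 37.6% against 21.1 and 18.7%. Both Cre+ values thus lay below both Cre- values in these gates. In the CD4 gate it was 53.9 and 44.7% against 31.8 and 60.4%. The 6 macrophage markers summed to 2972 and 4984 CPM in the CD4 gate of the Cre- libraries and to 12080 and 22387 in that of the Cre+ libraries, against 396 to 4002 in the NK and CD8 gates. Levels below are in CPM, mixed barcodes included unless stated. As the chemistry counts 1 end of each RNA, these levels were not divided by gene length. In sums over a gate or a whole library, fewer cells with a gene's RNA and less of it per cell cannot be told apart.

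Classes were compared with edgeR's quasi-likelihood test on the sums per library and class, with genotype as a covariate and Benjamini-Hochberg adjustment over 8061 genes. In NK cells against CD4 T cells 6 of the 8 genes were called higher and 0 lower at an adjusted p under 0.05, beside 2.67% and 2.57% (5.24% in all) of the genes tested. In CD8 T cells against CD4 T cells 6 of 8 were also higher and 0 lower, beside 1.98% and 2.47% (4.45% in all). In NK cells against CD8 T cells 2 of 8 were higher and 1 was lower, beside 0.782% and 0.881% (1.66% in all). The median log2 fold changes of the 8 genes were 4.48, 4.06 and 0.21 in these comparisons, and those of all genes tested were -0.01, 0.00 and -0.01. The same 4 libraries enter all 3 comparisons. Since classes of 1 library come from the same mouse, a fit with the library as a block was also made. Its value is given where a call of the 8 genes differs. Over all genes it called 538 (NK against CD4), 540 (CD8 against CD4) and 184 (NK against CD8 T cells). Without the block 422, 359 and 134 were called.

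**Figure D1:**
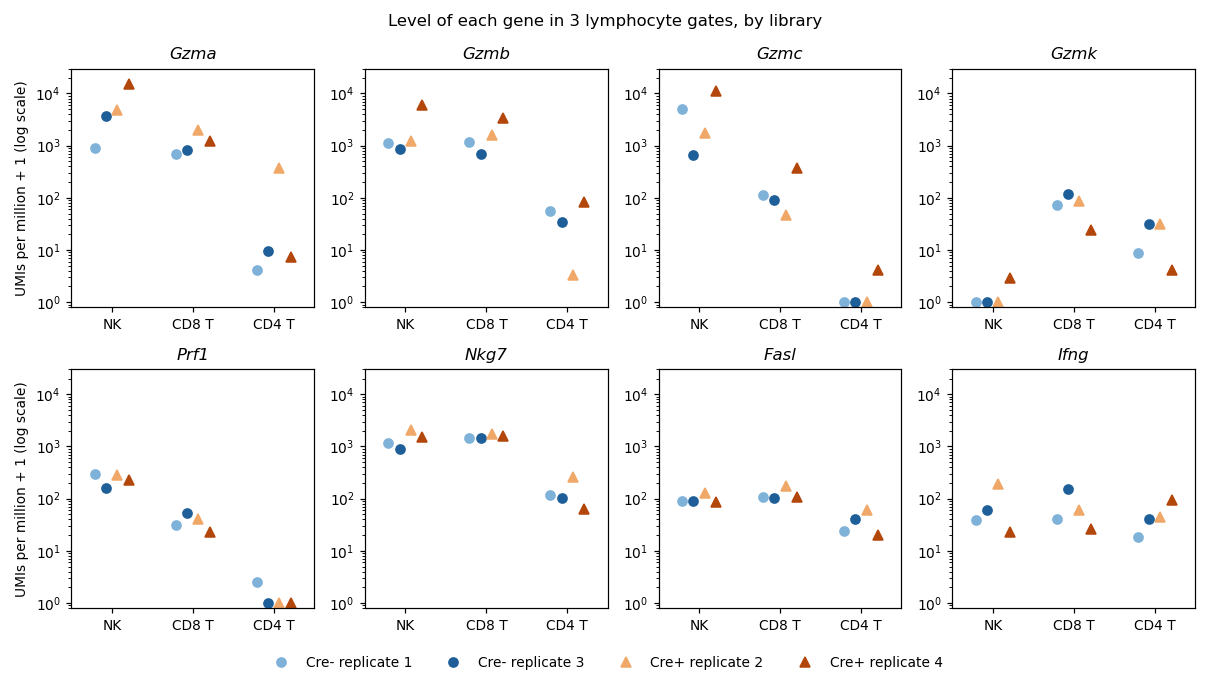
Level in CPM plus 1, on a log scale, for each of the 8 genes in NK, CD8 T and CD4 T cells; each point is the sum of 1 library, circles are Cre- and triangles Cre+ libraries. Prf1 was 159 to 294 in NK cells and 21.7 to 52.7 in CD8 T cells, with no overlap. The ranges of Nkg7 and of Fasl overlapped between these classes.

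Prf1, the pore-forming protein of the granule, was higher in NK cells than in CD8 T cells, with the lowest adjusted p of the 8 genes in that comparison. Its level in NK cells was 294 and 159 CPM in the Cre- libraries and 279 and 227 CPM in the Cre+ libraries. In CD8 T cells it was 30.9, 52.7, 40.1 and 21.7 CPM in the same order. Every NK value thus lay above every CD8 value, by a log2 fold change of 2.79 ± 0.29 (SE; adjusted p = 1.0e-04, edgeR). CD4 T cells held a single Prf1 UMI among 2285477 UMIs in all 4 libraries. The pooled ratio of NK to CD4 T cells was 534 (exact 95% interval 95.6 to 21134) and that of CD8 to CD4 T cells was 76.8 (13.7 to 3044), which cover counting error only (adjusted p = 9.6e-07 and 0.000198, edgeR). After thinning each cell to 2000 UMIs, Prf1 had a UMI in 48.4, 9.76, 37.5 and 27.5% of NK cells and in 9.32, 16.7, 9.42 and 5.08% of CD8 T cells. In Cre- replicate 3 the share in NK cells therefore lay below that in CD8 T cells. Mixed barcodes were 34.9% of the NK cells of that library, the largest share of cells. By UMIs the largest mixed part of the NK gate was in Cre- replicate 1 (35.4%, against 29.4% in replicate 3). Their part in this order was not tested. Without thinning the shares in replicate 3 were 37.2% of NK cells and 42.4% of CD8 T cells. The Prf1 level in CPM was higher in NK cells there, so no order was read from the share.

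Gzma, a tryptase, reached the highest level of the 8 genes and varied widely between libraries. In NK cells it was measured at 916 and 3686 CPM in the Cre- libraries and at 4765 and 15158 CPM in the Cre+ libraries. In CD8 T cells it was 691, 826, 1969 and 1223 CPM. NK cells were higher within each library, but the spread between libraries was wide. The difference of 2.05 ± 0.82 on the log2 scale did not pass the test (adjusted p = 0.397, edgeR). With no filter on low counts the difference was 2.01 and edgeR's adjusted p was 5.1e-24. That value, like the others with no filter below, was not read as a measure of the spread between mice. The shares of cells did not overlap between both classes. A Gzma UMI was found in 35.5, 48.8, 56.3 and 76.5% of NK cells and in 8.7, 11.1, 16.7 and 11.2% of CD8 T cells at 2000 UMIs per cell. Gzma in CD8 T cells was held by few of them, since the 10 cells with the most UMIs held 81.7 to 97.4% of the gate's Gzma UMIs. CD4 T cells had 3.12, 8.75, 365 and 6.43 CPM. The value of Cre+ replicate 2 came from 1 barcode with 153 Gzma UMIs, and the level without the top barcode of each library was 0 to 2.20 CPM. The differences from CD4 T cells were called (6.57 ± 1.02 for NK cells, adjusted p = 0.00157, and 4.52 ± 0.96 for CD8 T cells, adjusted p = 0.0154). The CD8 call was lost without replicate 1 (3.87, adjusted p = 0.114) and without replicate 3 (4.21, adjusted p = 0.0868), and also with at least 2 UMIs for each gate (3.80, adjusted p = 0.0954).

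Gzmb, a protease that cleaves after aspartate and activates caspases, did not separate NK from CD8 T cells. It was measured at 1103, 852, 1230 and 6089 CPM in NK cells and at 1171, 693, 1600 and 3365 CPM in CD8 T cells. The classes overlapped and the log2 difference was 0.40 ± 0.60 (adjusted p = 0.953). Both were above CD4 T cells, which had 54.7, 33.9, 2.38 and 83.6 CPM, with log2 fold changes of 5.50 ± 0.76 (adjusted p = 7.1e-04) and 5.10 ± 0.75 (adjusted p = 0.00161). Thinned shares of cells with a UMI were 41.9, 19.5, 59.4 and 86.3% in NK cells and 39.1, 31.9, 44.9 and 66.5% in CD8 T cells. In the few CD4 T cells with a Foxp3 UMI (17, 18, 6 and 6 cells) Gzmb was at 30.2, 60.01, 0 and 448 CPM. In the other CD4 T cells it was at 80.8, 18.9, 2.74 and 3.92 CPM, so that the order of both parts changed between libraries.

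Gzmc, a granzyme of strongly activated killer lymphocytes, was higher in NK cells than in CD8 T cells and rare in CD4 T cells. NK cells held 5022 and 649 CPM in the Cre- libraries and 1776 and 11091 CPM in the Cre+ libraries. CD8 T cells held 110, 89.6, 45.1 and 376 CPM. The lowest NK value was above the highest CD8 value, and the log2 fold change was 4.91 ± 0.81 (adjusted p = 0.00598). Without replicate 1 the change was 4.30 and no longer called (adjusted p = 0.121). CD4 T cells held 1 Gzmc UMI, in Cre+ replicate 4, and 0 in the others. The pooled ratio to CD4 T cells was 18238 for NK cells (exact 95% interval 3273 to 720388; adjusted p = 7.1e-05) and 444 for CD8 T cells (79.6 to 17555; adjusted p = 0.00638, and 0.053 without replicate 1). These intervals cover counting error only, and 23459 of the 26722 pooled Gzmc UMIs of NK cells came from Cre+ replicate 4. Within the NK gate Gzmc came from a part of the cells, with a UMI in 32.3, 19.5, 34.4 and 78.4% of thinned cells.

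Gzmb and Gzmc lie in the granzyme cluster of chromosome 14, on the same strand. The 250 bases before their RefSeq starts (GRCm38.p6, minus strand) are shown because both genes share this cluster and yet differed in where their RNA was found. Capitals mark matches, on either strand, to the RUNX letters TGTGGT and to the AP-1 letters TGANTCA.
Gzmb, chr14:56262335-56262584: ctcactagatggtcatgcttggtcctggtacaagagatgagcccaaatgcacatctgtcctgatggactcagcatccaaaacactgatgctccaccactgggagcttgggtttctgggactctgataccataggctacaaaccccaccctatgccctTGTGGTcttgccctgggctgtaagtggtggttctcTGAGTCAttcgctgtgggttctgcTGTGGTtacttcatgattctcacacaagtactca
Gzmc, chr14:56234658-56234907: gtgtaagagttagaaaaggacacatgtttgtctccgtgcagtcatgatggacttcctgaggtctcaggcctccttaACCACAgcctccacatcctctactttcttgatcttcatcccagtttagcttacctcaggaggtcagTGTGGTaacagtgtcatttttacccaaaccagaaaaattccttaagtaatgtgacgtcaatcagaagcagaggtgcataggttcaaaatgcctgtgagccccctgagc
Each window held 2 RUNX matches, and the Gzmb window also held 1 AP-1 match, with no overlap between the motifs. Of all 32851 promoter windows of this length, 14.0% held a RUNX match and 6.75% an AP-1 match, so these letters are common. Neither window held the T-box letters AGGTGT or the ETS letters CCGGAA, which 11.8% and 12.03% of all windows held. In the annotated transcripts, no stretch of 91 bases in the last 600 bases of Gzmb or Gzmc was shared with another of the granzymes or effector genes compared.

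Gzmk, a tryptase known from a CD8 subset with less killing activity, had the opposite pattern to Gzmc. CD8 T cells held 70.4 and 118 CPM in the Cre- libraries and 85.8 and 23.3 CPM in the Cre+ libraries. NK cells held 0 UMIs in replicates 1, 2 and 3 and 4 UMIs in replicate 4, so that 0 of 31, 0 of 43 and 0 of 33 unthinned NK cells allow shares of up to 9.68, 6.98 and 9.09% of cells with a UMI. The pooled ratio of CD8 T cells to NK cells was 54.7 (exact 95% interval 21.2 to 202, counting error only, adjusted p = 0.00216, edgeR). Pooled ratios weigh each library by its UMIs. All Gzmk UMIs of NK cells were from replicate 4, where NK cells had 1.89 CPM, beside 23.3 in CD8 and 3.22 in CD4 T cells. CD4 T cells had 7.81, 30.6, 31.0 and 3.22 CPM, below CD8 T cells in each library. Their difference from CD8 T cells was 1.96 ± 0.54 on the log2 scale and did not pass the test (adjusted p = 0.0621), but was called with the library as a block (2.11, adjusted p = 0.00615), by DESeq2 (adjusted p = 0.0363) and with no filter on low counts (adjusted p = 7.6e-09). Their ratio to NK cells was 17.2 (6.30 to 65.8; adjusted p = 0.0518, and 0.0276 with the block). That difference was also called by DESeq2 (adjusted p = 0.00334), with at least 2 UMIs for each gate (0.0341), with no filter on low counts (6.1e-09), with upper limits of 5000 genes and 30000 UMIs (0.026), without mixed barcodes (0.014) and without replicate 4 (0.0483).

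Nkg7, a membrane protein of the granule needed for its release, was found in more NK and CD8 T cells than any of the other 7 genes at equal depth. It was measured at 1173, 911, 2069 and 1525 CPM in NK cells and at 1460, 1422, 1741 and 1586 CPM in CD8 T cells, with a log2 difference of -0.15 ± 0.29 (adjusted p = 0.974). At 2000 UMIs per cell it had a UMI in 70.7 to 88.2% of NK cells and in 86.8 to 91.3% of CD8 T cells. CD4 T cells had 116, 104, 257 and 61.1 CPM and 3.85 to 19.2% of cells, lower than NK cells by 3.46 ± 0.32 and than CD8 T cells by 3.61 ± 0.32 on the log2 scale (adjusted p = 2.2e-05 and 4.5e-05). Mean levels were 1419, 1552 and 134 CPM in NK, CD8 T and CD4 T cells. Without mixed barcodes they were 1743, 2037 and 201 CPM.

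Fasl, the ligand of the death receptor Fas, was also not called between NK and CD8 T cells, though CD8 T cells were higher within each library. NK cells had 91.01, 90.3, 125 and 84.6 CPM and CD8 T cells 107, 104, 174 and 106 CPM, a log2 difference of -0.29 ± 0.25 (adjusted p = 0.835). CD4 T cells had 23.4, 40.4, 59.6 and 19.3 CPM, and without mixed barcodes 44.1, 65.3, 80.4 and 48.7 CPM. All CD4 values lay below all values of the other classes (log2 fold changes of 1.48 ± 0.29 for NK and 1.78 ± 0.28 for CD8 T cells, adjusted p = 0.00745 and 0.00229). Without replicate 1 both calls were lost (1.31 and 1.63, adjusted p = 0.103 and 0.0553), and with at least 2 UMIs for each gate that of NK cells was lost (1.17, adjusted p = 0.0678).

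Ifng, the secreted cytokine, was the gene that no class comparison called. It was measured at 38.1, 58.6, 191 and 21.7 CPM in NK cells, at 40.5, 152, 58.7 and 24.6 CPM in CD8 T cells and at 17.2, 39.4, 42.9 and 93.3 CPM in CD4 T cells. Mean levels were 77.3, 69.0 and 48.2 CPM in NK, CD8 T and CD4 T cells. Without mixed barcodes their order was reversed, at 91.3, 98.4 and 101.7 CPM. The classes overlapped in every pair, with adjusted p of 0.999, 0.725 and 0.686 for NK against CD8, NK against CD4 and CD8 against CD4 T cells. Single cells weighed heavily on these sums, as 1 CD8 T cell of Cre- replicate 3 held 86 Ifng UMIs and 1 CD4 T cell of Cre+ replicate 4 held 20.

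**Figure D2:**
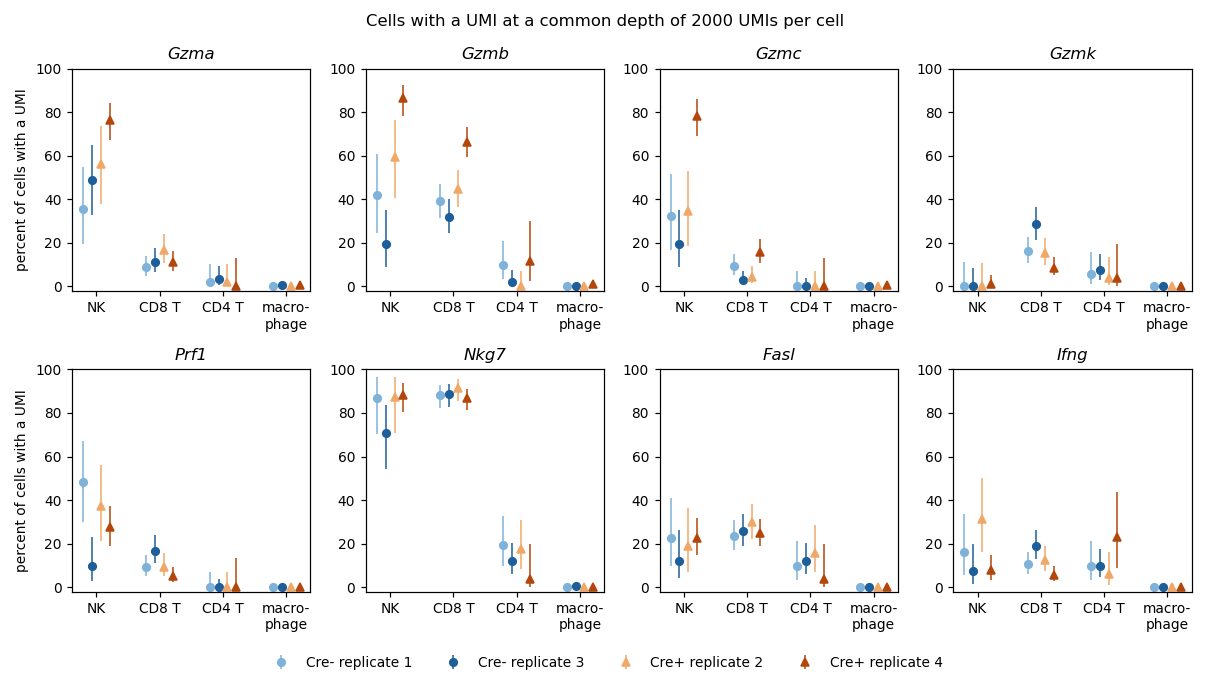
Percent of cells with at least 1 UMI after thinning each cell to 2000 UMIs, for NK, CD8 T and CD4 T cells and for macrophages, which should lack these genes; points are libraries and bars are exact 95% binomial intervals. Gzma was found in 35.5 to 76.5% of NK cells and in 8.7 to 16.7% of CD8 T cells, and no gene exceeded 0.957% of macrophages.

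Macrophages and epithelial cells gave a background. Their gates took only barcodes without Cd3 or Ncr1 UMIs that passed no other gate, which leaves out doublets with such UMIs. In the rest, free RNA and doublets cannot be told apart. At 2000 UMIs per cell, at most 0.957% of macrophages and 1.05% of epithelial cells had a UMI of any of the 8 genes in a library. Without thinning, at median depths of 11381 to 19190 UMIs, Gzma reached 0.708 to 0.946% of macrophages in replicates 1 to 3 and 7.33% in Cre+ replicate 4. The NK shares without thinning were 41.9, 72.1, 63.6 and 78.3% for Gzma, at median depths of 10285, 7734, 9710 and 17385 UMIs. Thinned shares of CD4 T cells were 0 to 3.26% for Gzma, from at most 3 cells a library. Those of Nkg7 were 3.85 to 19.2%, of Fasl 3.85 to 15.7%, of Ifng 5.88 to 23.1% and of Gzmk 3.85 to 7.61%. With at most 92 CD4 T cells a library, 1 cell with a UMI already exceeds 1.05%. These shares therefore cannot be set against that background. The lowest of these shares rest on few cells. Of the 27 CD4 T cells of Cre+ replicate 4, 3 held Nkg7 and 1 held Gzmk without thinning. Mixed barcodes stayed in the CD4 gate, so the 1.05% is no measure of doublets there.

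NK and CD8 T cells together held most of the RNA of these genes, but not in the same way. Of all Prf1 UMIs in a library, NK cells held 57.4, 34.8, 50.8 and 71.6% and CD8 T cells 25.2, 48.1, 29.0 and 9.8%. Of the Gzmk UMIs, CD8 T cells held 91.4, 82.4, 76.9 and 89.9%. Of the Gzmb UMIs they held 57.6, 60.7, 68.2 and 31.0%. Barcodes with both Cd3 and Ncr1 UMIs (14, 8, 16 and 43 barcodes) were kept apart and held 1.09 to 28.3% of the UMIs of the genes other than Gzmk. Their Gzmc level was 6607, 630, 1005 and 6477 CPM. Barcodes with Cd3 but neither Cd4 nor Cd8 (114, 222, 140 and 230) had lower levels, with Nkg7 at 93.2 to 109.5 CPM. Of these barcodes, 42.1, 30.2, 46.4 and 54.8% also passed a gate of another cell type, whose part in the lower levels was not tested.

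**Figure D3:**
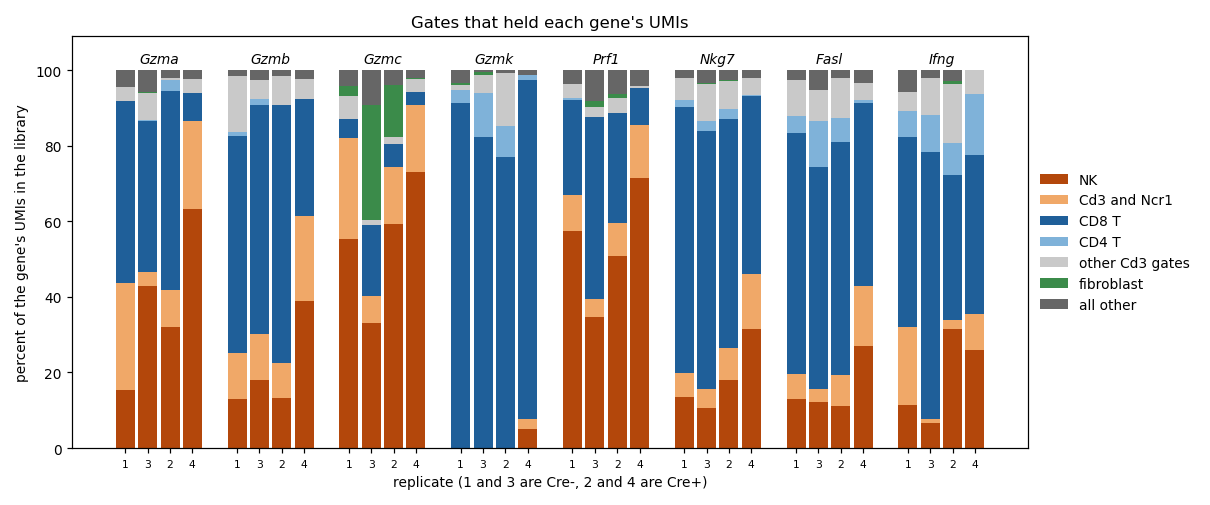
Percent of each gene's UMIs held by each gate in each library, stacked to 100. Gzmk was held mostly by CD8 T cells (76.9 to 91.4%), Prf1 mostly by NK and CD8 T cells, and Gzmc in Cre- replicate 3 had 30.4% of its UMIs in fibroblasts.

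Fibroblasts also held Gzmc, a comparison chosen after the values were seen. Their level was 24.4 and 28.2 CPM in the Cre- libraries and 10.9 and 19.7 CPM in the Cre+ libraries, from 115, 245, 144 and 46 UMIs. Gzma in the same fibroblasts had 1, 8, 2 and 12 UMIs and Gzmb 0, 4, 3 and 7. In NK cells of the same libraries, Gzmc had 2373, 266, 624 and 23459 UMIs beside 433, 1510, 1674 and 32062 of Gzma. Fibroblasts therefore had more Gzmc than Gzma in every library, and NK cells had so only in Cre- replicate 1. The fibroblast gate already left out barcodes with a Cd3 or Ncr1 UMI. In barcodes of at most 100 UMIs of Cre+ replicate 4, Gzmc was at 207 and Gzma at 576 CPM. The part of free RNA and doublets in the fibroblast values was not tested. Fibroblasts made up 30.4% of the Gzmc UMIs of Cre- replicate 3, 13.7% of those of Cre+ replicate 2, and 2.68 and 0.143% in replicates 1 and 4.

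The Gzmc-positive fibroblasts were 23 of 185, 37 of 282, 36 of 425 and 8 of 101, or 12.4, 13.1, 8.47 and 7.92% (exact 95% intervals 8.05 to 18.1, 9.41 to 17.6, 6.0 to 11.5 and 3.48 to 15.0). They were deeper than the other fibroblasts, with medians of 33498, 55849, 54925.5 and 45180.5 UMIs against 22138, 25406, 28365 and 20052. Leaving out fibroblasts with a UMI of Ptprc, Nkg7, Ccl5, Gzma or Gzmb kept 21, 29, 28 and 5 Gzmc-positive cells, and the Gzmc level was then 24.1, 26.9, 9.82 and 24.8 CPM. Gzme, a neighbour in the cluster, was also found there, with 41, 37, 78 and 1 UMIs, and Gzmd with 0, 31, 9 and 2. By the smallest of the 4 libraries' ratios to the Gzmc-negative fibroblasts, the leading genes were Acta2 and Tagln, contractile genes of myofibroblasts, Tnc and Col12a1, matrix proteins, and Lrrc15, a marker of tumor myofibroblasts. Acta2 was measured at 1019, 2346, 1640 and 2757 CPM in Gzmc-positive and at 177, 275, 294 and 129 CPM in Gzmc-negative fibroblasts. No test was made on these cells, since they were chosen by Gzmc and came from 1 mouse per library.

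**Figure D4:**
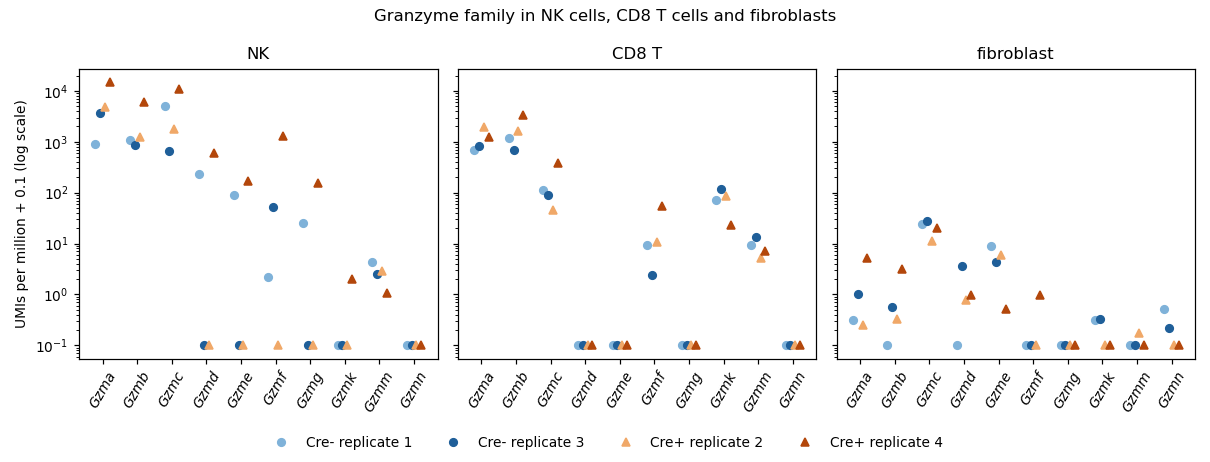
Level in CPM plus 0.1, on a log scale, of the 10 granzyme genes counted in NK cells, CD8 T cells and fibroblasts; points are libraries. In fibroblasts Gzmc was the highest granzyme of every library (10.9 to 28.2), and Gzmd, Gzme and Gzmg in NK cells were found only in replicates 1 and 4 of the 4 libraries.

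Other granzymes of the cluster also differed between libraries in the NK gate. Gzmd was at 231, 0, 0 and 603 CPM and Gzme at 91.01, 0, 0 and 167 CPM, in the order Cre- replicates 1 and 3 and Cre+ replicates 2 and 4. Gzmf was at 2.12, 51.3, 0 and 1310 CPM, and so did not follow the order of Gzmc, and Gzmn was at 0 in all 4 libraries. The libraries with the highest Gzmc, 1 of each genotype, thus also held the most Gzmd and Gzme. Gzmm, encoded apart from this cluster, was at 0.946 to 4.23 CPM in NK cells and 5.01 to 13.5 CPM in CD8 T cells.

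Co-detection within CD8 T cells was counted after thinning. Among CD8 T cells with a Gzmc UMI, 12 of 15, 4 of 4, 5 of 6 and 29 of 31 also had a Gzmb UMI, while 34.9, 30.0, 43.2 and 61.4% of Gzmc-negative CD8 T cells did. Gzmb-positive CD8 T cells had Gzma in 17.5, 30.4, 30.6 and 14.5%, against 3.06, 2.04, 5.26 and 4.55% of the Gzmb-negative. For Gzmk the direction changed between libraries, with Gzmb in 26.9, 43.9, 52.4 and 52.9% of Gzmk-positive and 41.5, 27.2, 43.6 and 67.8% of Gzmk-negative CD8 T cells. No test was made across cells.

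Levels of the 8 genes were compared with those of 17646 genes over 43 sums of at least 20 cells, all classes and libraries included, by Pearson's correlation of log2(CPM + 1). Sums of 1 library share that library. The most alike genes were Xcl1 for Gzma (r = 0.939) and Gzmb (0.956), Klrb1c for Gzmc (0.901) and Prf1 (0.943), Themis for Gzmk (0.966), Fasl for Nkg7 (0.983), Cd96 for Fasl (0.991) and Sh2d1a for Ifng (0.985). Next in order were Klre1 and Klrc2 for Gzma, Klra5 and Nkg7 for Gzmb, Klrb1a and Klra7 for Gzmc, Tnp2 and Cd6 for Gzmk, Klra9 and Klre1 for Prf1, Cd96 and Il2rb for Nkg7, Sh2d1a and Nkg7 for Fasl, and Prkcq and Cd96 for Ifng. Most of these are receptors or signaling proteins of NK and T cells.

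Related genes were described in 7 lists of 59 genes. Their class comparisons are from the fit without the library as a block. Of 10 other granule proteins, 4 were tested between classes. Cst7, an inhibitor of granule cathepsins, and Ctsw, a cathepsin of killer lymphocytes, were higher in NK cells (3.05 ± 0.31 and 2.83 ± 0.28, adjusted p = 4.3e-05 and 3.9e-05) and in CD8 T cells (2.43 ± 0.30 and 2.52 ± 0.28, adjusted p = 4.6e-04 and 2.0e-04) than in CD4 T cells, and none of the 4 was called between NK and CD8 T cells. The medians of this list were 1.52, 1.17 and 0.31 for NK against CD4, CD8 against CD4 and NK against CD8 T cells. All 8 genes of granule exocytosis were tested. Their medians were -0.03, -0.11 and 0.17, and 1 call was made, Stx11, a syntaxin of granule fusion, lower in CD8 than in CD4 T cells (-2.04 ± 0.49, adjusted p = 0.0306), beside the macrophage markers in the CD4 gate given above, whose part in it was not tested.

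Of 8 other death ligands, cytokines and chemokines, 7 were tested, with medians of 1.67, 0.82 and 0.46 in the same order. Xcl1, a chemokine for dendritic cells, was higher in NK (5.82 ± 0.83, adjusted p = 8.3e-04) and CD8 T cells (4.32 ± 0.77, adjusted p = 0.00594) than in CD4 T cells. Tnfsf10, the ligand TRAIL, was also higher in NK (1.91 ± 0.34) and CD8 T cells (1.46 ± 0.32), and Ccl5, a chemokine, in CD8 T cells (3.51 ± 0.75). Lta, lymphotoxin alpha, was lower in NK than in CD4 T cells (-2.90 ± 0.60, adjusted p = 0.0123). Between NK and CD8 T cells 0 of the 7 were called.

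Xcl1, Eomes, Klra8, Klre1 and Klrd1 are also markers of the NK list. Of 10 activating and inhibitory receptors, all tested, 9 were higher in NK cells and 8 in CD8 T cells than in CD4 T cells, and 3 were higher in NK than in CD8 T cells (medians 4.85, 3.38 and 1.14). The 3 were Klra8 (Ly49H), Klre1 and Klrk1 (NKG2D). Klra8 was at 141.8, 85.4, 304.6 and 85.6 CPM in NK cells and in CD8 T cells at 1.76 CPM in Cre- replicate 3, from 3 UMIs, and at 0 in the others (adjusted p = 2.0e-04). Klre1 and Klrk1 were higher by 2.10 ± 0.24 and 1.62 ± 0.28 (adjusted p = 2.2e-04 and 0.00797).

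Of 10 transcription factors and cytokine receptors, all tested, 5 were higher in NK and 5 in CD8 T cells than in CD4 T cells, namely Eomes, Tbx21, Il12rb2, Il2rb and Runx3 in both. Tbx21 and Eomes are T-box factors of killer lymphocytes, and their differences were 3.42 ± 0.33 and 3.58 ± 0.63 for NK cells and 2.43 ± 0.33 and 2.52 ± 0.63 for CD8 T cells. Zeb2 was lower in CD8 than in CD4 T cells (-1.40 ± 0.37, adjusted p = 0.0495). Macrophage markers summed to 12080, 4984 and 22387 CPM in the CD4 gate of replicates 2, 3 and 4. In the CD8 gate of the same replicates they summed to 1430, 1327 and 2680 CPM. Replicate 1 had the other order, with 2972 CPM in the CD4 gate and 4002 CPM in the CD8 gate. The part of these markers in the Zeb2 difference was not tested. None of the 10 was called between NK and CD8 T cells. The list's medians were 1.53, 0.73 and 0.88.

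Of 8 T cell state genes, 7 were tested, with medians of -1.05, 0.44 and -1.10. Ccr7, a homing receptor, and Pdcd1, the inhibitory receptor PD-1, were lower in NK than in CD8 T cells (-4.48 ± 0.57 and -3.50 ± 0.57, adjusted p = 7.3e-04 and 0.00542). Both were also lower in NK than in CD4 T cells, as was Il7r, which was lower in CD8 than in CD4 T cells too (-2.40 ± 0.49, adjusted p = 0.0125). The 5 genes of the target side, all tested, split. Serpinb9 and Serpinb6b, inhibitors of granzymes, were higher in NK than in CD8 T cells (1.64 ± 0.24 and 1.72 ± 0.28, adjusted p = 0.0026 and 0.00605) and higher in CD8 than in CD4 T cells (1.92 ± 0.28 and 1.71 ± 0.33). Fas was lower in NK than in CD4 T cells (-2.30 ± 0.48, adjusted p = 0.0126), and Ifngr2, a chain of the interferon gamma receptor, was lower in NK and CD8 T cells than in CD4 T cells (-1.90 ± 0.42 and -1.42 ± 0.36), where the part of the same macrophage markers was not tested either. The medians of this list were -0.19, -0.32 and 0.13.

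The design also compared the genotypes. In no class was any of the 8 genes called between Cre+ and Cre- libraries by edgeR after the filter on low counts, with 2 libraries a group. With no such filter, edgeR called Gzma, Gzmb and Gzmc in NK cells (adjusted p = 3.9e-11, 3.0e-08 and 0.00127). It then also called Gzma, Gzmb, Gzmc and Ifng in CD8 T cells (adjusted p = 0.00709, 6.9e-05, 6.5e-04 and 0.0106), the last lower in Cre+. In that setting 260 of 15330 genes in NK cells and 500 of 17316 in CD8 T cells were called, against 0 in each class with the filter. The log2 fold change of Gzma in NK cells was 2.30 without the filter and 2.20 with it. These p-values without the filter were therefore not read as measures of the spread between mice. After the filter, 7 of the 8 could be tested in NK cells (Gzmk was too low) and all 8 in CD8 T cells. In CD4 T cells 5 could be tested (not Gzma, Gzmc or Prf1), and in whole libraries all 8. Of all genes, 0 of 5580, 0 of 10052, 57 of 6743 and 0 of 18073 were called (0, 0, 0.845 and 0%; in CD4 T cells 0.504% higher and 0.341% lower in Cre+). At an unadjusted p under 0.05 there were 375, 622, 876 and 410 genes, and DESeq2 called 19, 56, 139 and 30. In data simulated for the NK comparison on 15330 genes, 23% of genes changed by 1 and 88% of those changed by 2 on the log2 scale were called. Every simulated gene was given the same spread between libraries, which was not estimated from these data. Changed genes were drawn only from those above a minimum count. These shares therefore do not say how often a gene that varies like Gzma would be called.

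Gzma and Gzmb were higher in both Cre+ libraries than in both Cre- libraries, in NK cells and in CD8 T cells, in the values given above. Without mixed barcodes this held in CD8 T cells only. In NK cells Gzma was then at 1419 and 5072 CPM in Cre- and at 4782 and 17273 CPM in Cre+ libraries. Gzmb was then at 1704 and 1189 against 1211 and 7073 CPM there. With mixed barcodes included, the log2 fold changes in NK cells were 2.20 ± 0.75 for Gzma (adjusted p = 0.629) and 1.99 ± 0.69 for Gzmb (adjusted p = 0.648). In CD8 T cells they were 1.17 ± 0.26 (adjusted p = 0.519; DESeq2 0.0119) and 1.55 ± 0.47 (adjusted p = 0.633; DESeq2 0.0614). With Nkg7, 3 of 7 genes in NK cells and 3 of 8 in CD8 T cells had both Cre+ values above both Cre- values, beside 14.9% and 10.5% of all genes tested, and 0 had both below, beside 21% and 24.5%. In CD4 T cells Ifng alone of 5 was so placed (14.8% of genes), and in whole libraries Gzma, Nkg7 and Fasl of 8 (9.25%). All these counts include mixed barcodes. Without them Nkg7 in CD8 T cells was at 2122 and 2215 CPM in Cre- and lower, at 2001 and 1810 CPM, in Cre+ libraries. Nkg7 in NK cells kept its order, and Ifng in CD4 T cells overlapped (37.3 and 71.2 against 62.9 and 235 CPM). Mixed barcodes held more of the UMIs of the NK and CD8 gates in both Cre- libraries. Their part in the differences of those gates was not tested. In CD4 T cells the log2 fold changes ran from -0.02 for Gzmk to 1.31 for Ifng (adjusted p = 0.358).

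Except for Gzma in CD8 T cells, where Cre+ replicate 2 was the highest library, the differences of Gzma, Gzmb and Gzmc in NK cells, CD8 T cells and whole libraries were smaller or changed sign without Cre+ replicate 4. Over all kept barcodes Gzma was at 24.4 and 28.8 CPM in the Cre- libraries and at 48.6 and 376 CPM in the Cre+ libraries. Gzmb was at 34.7, 16.0, 30.4 and 245 CPM and Gzmc at 36.9, 6.59, 9.77 and 238 CPM. For Gzmb and Gzmc the Cre+ replicate 2 value lay between those of the Cre- libraries. The log2 fold changes over whole libraries were 3.18 ± 1.08, 2.63 ± 1.13 and 2.71 ± 1.69, and without replicate 4 they were 0.83, 0.23 and -1.19. In NK cells they were 1.07 for Gzma, 0.34 for Gzmb and -0.68 for Gzmc without replicate 4, and in CD8 T cells 1.42, 0.82 and -1.11. These calls also turned on single libraries. In NK cells, fits that left 1 library in a genotype called Gzma without replicate 2 (2.90) and without replicate 3 (3.56), Gzmb without replicate 1 (2.22) and replicate 2 (2.81), Gzmc without replicate 1 (3.43) and replicate 2 (2.13), and Ifng without replicate 4 (1.99), and in them the lone library is assumed to vary like the others. In CD4 T cells Nkg7 (1.36) and Gzmb (-3.96) were called without replicate 4 and Ifng (2.13) without replicate 3. The file of replicate 4 came from another version of the counting software, which cannot be told apart from that mouse.

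**Figure D5:**
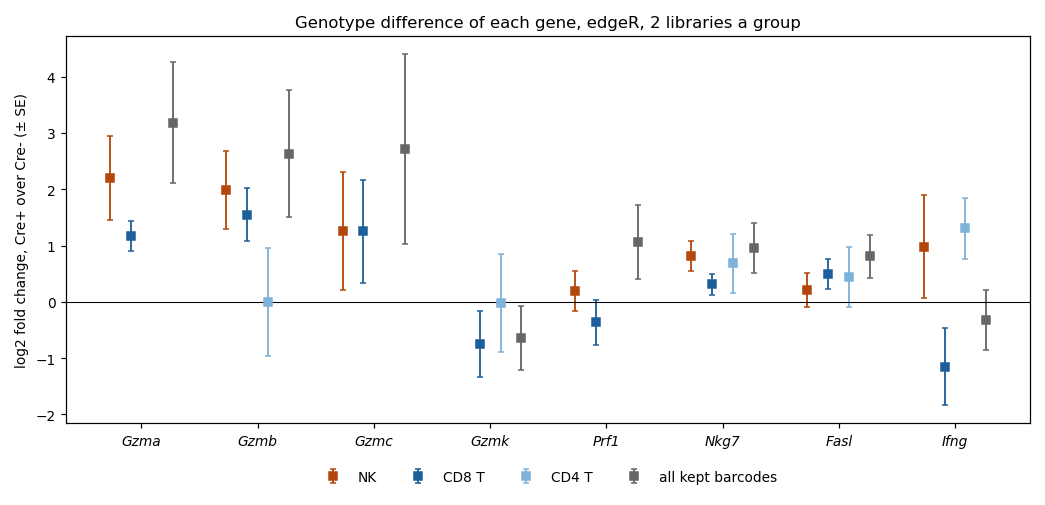
Log2 fold change of Cre+ over Cre- libraries with its standard error, for each gene in NK, CD8 T and CD4 T cells and over all kept barcodes, from edgeR with 2 libraries a group; genes too low to be tested in a class are left out. Gzma (2.20 in NK cells, 3.18 in whole libraries) and Gzmb (1.99 and 2.63) had the largest positive values in NK cells, and no value passed the adjusted threshold.

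Prf1, Nkg7 and Fasl had smaller differences than Gzma and Gzmb in NK and CD8 T cells. Prf1 differed by 0.19 ± 0.36 in NK cells and by -0.36 ± 0.39 in CD8 T cells, Nkg7 by 0.82 ± 0.27 and 0.31 ± 0.19, and Fasl by 0.22 ± 0.30 and 0.49 ± 0.26. Gzmk, tested in CD8 T cells, was at 70.4 and 118 CPM in Cre- and 85.8 and 23.3 CPM in Cre+ libraries (-0.75 ± 0.59, adjusted p = 0.957). Ifng differed by 0.98 ± 0.91 in NK cells and by -1.15 ± 0.68 in CD8 T cells (adjusted p = 0.898 and 0.935). The medians of the tested genes were 0.98, 0.40, 0.45 and 1.01 in NK cells, CD8 T cells, CD4 T cells and whole libraries, and those of all genes were -0.01, 0.00, 0.01 and 0.04.

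Whether a genotype difference itself differed between classes was tested with an interaction term over the 12 sums. This fit had no library term, so classes of the same mouse entered it as if independent. None of 8061 genes was called by edgeR for NK against CD8, NK against CD4 or CD8 against CD4 T cells, with 268, 686 and 286 genes at an unadjusted p under 0.05 and 5, 50 and 0 calls by DESeq2. Of the 59 related genes, 1 was called between genotypes by edgeR. It was Fcgr3, an Fc receptor, higher in the CD4 gate of Cre+ libraries (3.25 ± 0.39, adjusted p = 0.0262), where the macrophage markers were also higher. Without mixed barcodes, 0 of 4172 genes were called between genotypes in CD4 T cells. The gate then held 19 to 86 cells a library, and fewer genes were tested than the 6743 with mixed barcodes. The loss of all calls therefore says nothing about Fcgr3 in particular. The cause of the Fcgr3 difference was not tested.

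NK cells were 0.63 and 0.727% of kept barcodes in Cre- and 0.588 and 1.49% in Cre+ libraries, CD8 T cells 3.29 and 2.43% against 2.48 and 2.82%, and CD4 T cells 1.06 and 1.55% against 0.909 and 0.379%. The differences of the means were 0.36, -0.21 and -0.66 percentage points (exact two-sided permutation p = 1, 1 and 0.3333, adjusted over 3 gates 1, 1 and 1), and 0.3333 is the smallest p that 2 against 2 libraries allow. CD4 T cells were the only gate whose values did not overlap between genotypes.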

How the data were processed

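Mammary tumors of 4 mice had been profiled with 10x Genomics 3' v3 chemistry, 1 library per mouse. Values were counts of UMIs as the authors deposited them, neither normalized nor annotated by cell type. The headers of replicates 1 to 3 name Cell Ranger 6.1.2 and that of replicate 4 names Cell Ranger 4. Replicates 1 to 3 held called cells of at least 500 UMIs and 112729231 to 126843597 UMIs in all. Replicate 4 held 2582424 barcodes and 157662955 UMIs. The submitters' processing notes name a human build (hg 38) although the gene identifiers are those of mouse, so the build of the counts was not settled and no gene coordinates of the files were used. RefSeq promoter sequences (GRCm38.p6) were matched by symbol for all 8 genes.

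Barcodes of at least 1000 UMIs and at most 20% mitochondrial UMIs were kept, with no upper limits, and no doublet caller was run. Gates were set on raw UMIs, and barcodes that passed another gate were counted and left out in an alternative. The 8 genes, the gates and the lists of related genes were chosen with earlier results of these data known. The genes named were these 8, Frmd8, the gate genes, some called genes of each list, and the 3 genes most like each member. The called genes named were not always those with the largest changes. A few others (Acta2, Gzmd to Gzmm and the like) were chosen after their values were seen.

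Sums of these counts, 1 for each class in each library, were tested with edgeR 4.0.16 (quasi-likelihood test, TMM, filterByExpr, Benjamini-Hochberg over all genes tested, threshold 0.05) in R 4.3.3. DESeq2 1.42.0 and other settings were alternatives, and the tests were checked on simulated counts. The standard error was the fold change divided by the root of the F statistic. Shares of cells have exact Clopper-Pearson 95% intervals and levels rest on Poisson counts; both cover counting error only. A count of 0 was read as up to 3 counts. Cells were thinned to 2000 UMIs without replacement, shallower cells left out. Classes of 1 library come from the same mouse, so the library number pairs them: deviations from class means correlated by 0.0025 to 0.48 over 8061 genes. Python 3.11.15, numpy 2.4.6, scipy 1.17.1 and pandas 2.3.3 were used. With 2 mice a genotype, p-values rest on little replication.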

Additional observations from a re-analysis of the deposited data

Results flagged for a closer look

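In Cre+ replicate 4, the library deposited with all barcodes, RNA of the 8 genes was also found in barcodes of at most 100 UMIs, which no comparison above used. Among 4981956 UMIs in 2078989 such barcodes, Gzma was at 576 CPM, Gzmc at 207, Gzmb at 182 and Nkg7 at 69.9. Prf1 was at 3.41, Fasl at 3.21, Ifng at 2.21 and Gzmk at 1.41. Each exceeded the 3 counts that a count of 0 allows. The level in the NK gate of the same library was 15158 CPM for Gzma and 227 for Prf1, and that over all its kept barcodes was 376 and 4.98. Such barcodes were not analysed here for the other 3 libraries.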

How the results depend on the processing

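Over all alternatives, 286 values of the 8 genes in class comparisons kept their direction and side of the threshold, 11 gained a call, 8 lost one and 7 changed sign, while 293 genotype values kept both, 17 gained a call and 29 changed sign. The causes of the changes below were not tested. Called genes between CD8 and CD4 T cells (359) were 206 with at least 2 UMIs for each gate, 1099 with no filter on low counts, 224 with a stricter limit on replicate 4 barcodes, 540 with the replicate block, and 111 to 272 leaving out 1 replicate. Between NK and CD4 T cells (422) they were 976 with no filter, 718 without mixed barcodes (an alternative chosen after seeing the data) and 219 to 355 leaving out 1 replicate. Between NK and CD8 T cells (134) they were 208 by DESeq2, 702 with no filter, 88 with the stricter limit, 253 without mixed barcodes and 53 to 134 leaving out 1 replicate. The library block changed no other call of the 8 genes than those of Gzmk.

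Genotype calls in CD4 T cells (57) were 33 in 1 fit of 12 sums, 139 by DESeq2, 592 with no filter, 0 with the stricter limit, 0 with upper limits of 5000 genes and 30000 UMIs, 0 without mixed barcodes, and 220 to 278 leaving out 1 replicate. In CD8 T cells (0) they were 56 by DESeq2, 500 with no filter, 6 with the upper limits, 1 without mixed barcodes and 0 to 18 leaving out 1 replicate. In NK cells (0) they were 19, 260 with no filter, 1 with at least 2 gate UMIs and 47 to 330, and in whole libraries (0) 30 by DESeq2 and 0 to 2. Interaction calls (0) were 50 by DESeq2 and 0 to 1 for NK against CD4, and 5 by DESeq2 for NK against CD8 T cells. Leaving out 1 replicate, the difference in gate share ran from -0.0899 to 0.81 percentage points for NK and from -0.641 to 0.217 for CD8 T cells.

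Log2 values that changed sign follow. Ifng in NK against CD8 T cells was -0.021 with no filter, -0.28 with the upper limits and -0.15 without mixed barcodes. For genotype in CD4 T cells, Gzmb was -3.89 with 2 gate UMIs, -0.0023 from 3000 UMIs, -0.0090 with no filter, -0.44 with the stricter limit, -0.45 with the upper limits and -1.21 without mixed barcodes, Gzmk was 0.080 with the stricter limit and Nkg7 -0.013 with the upper limits. In CD8 T cells Nkg7 was -0.16 with the upper limits and -0.12 without mixed barcodes. In NK cells Fasl was -0.044 without mixed barcodes and Prf1 -0.011, -0.0010 and -0.19 with 2 gate UMIs, the upper limits and without mixed barcodes.

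Leaving out 1 replicate, class differences ran from -0.041 to 1.45 (Ifng, CD8 against CD4), -0.22 to 1.47 (Ifng, NK against CD4), -0.84 to 0.76 (Ifng, NK against CD8) and -0.065 to 0.54 (Gzmb, NK against CD8 T cells). Genotype differences ran in CD4 T cells from -0.59 to 0.98 (Fasl), -3.96 to 1.12 (Gzmb), -2.42 to 1.35 (Gzmk) and -0.66 to 1.36 (Nkg7). They ran in CD8 T cells from -1.11 to 2.11 (Gzmc), -1.79 to 0.12 (Ifng) and -0.74 to 0.10 (Prf1), in NK cells from -0.68 to 3.43 (Gzmc), -0.96 to 1.99 (Ifng) and -0.15 to 0.74 (Prf1), and in whole libraries from -1.19 to 4.41 (Gzmc), -0.82 to 0.36 (Ifng) and -0.053 to 1.67 (Prf1). The sums rest on 27 to 92 CD4 T cells, 139 to 201 CD8 T cells and 31 to 106 NK cells of a library.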
